A study of Mus musculus with 18 samples.

Results

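The 6 genes described here, Acp1, Sh3yl1, Ntsr2, Gm4419, 2410018L13Rik and 5730507C01Rik, lie between 16 and 32 Mb of mouse chromosome 12 (mm9). They were found by their symbols among the 35006 gene symbols of each library, and they had been chosen because their retinal mRNA stood apart in WT mice given NACET. Retinal poly(A) RNA of male mice was sequenced in 18 libraries. WT mice (3 libraries) were normoglycemic C57BL/6J animals on plain water, and WT + NACET mice (6 libraries) were labelled as the same strain and drank NACET, an ethyl ester form of N-acetylcysteine, an antioxidant. Akita mice (4 libraries) were C57BL/6-Ins2Akita/J heterozygotes, whose mutant insulin 2 misfolds in pancreatic β cells and causes diabetes in the whole animal, and Akita + NACET mice (5 libraries) were of the same strain and treated. Treatment ran from week 4 to week 24 of age, when the retinas were taken, with NACET at 0.33 mg/mL of drinking water, a daily dose of 50 mg/kg.

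The 6 genes do not form a pathway. Acp1 encodes the low molecular weight protein tyrosine phosphatase, a small cytosolic enzyme, and Sh3yl1 encodes an SH3-domain protein that binds phosphoinositides at the plasma membrane. Ntsr2 encodes a G protein-coupled receptor for the neuropeptide neurotensin and is known in the brain mainly from astroglia. Gm4419 is a long noncoding RNA, and the RIKEN genes 2410018L13Rik and 5730507C01Rik are not characterised. In tissue RNA, a change in the number of cells that carry a transcript and a change in transcript per cell cannot be told apart.

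Libraries held 11495596 to 17814480 counts in genes once ribosomal RNA genes were removed. Retinal marker genes were present in every library, with the cone gene Arr3 at 285 to 621 CPM (counts scaled to library size) and the ganglion cell gene Rbpms at 27.4 to 68.5 CPM. Reads outside annotated exons made up 14.9% to 17.1% in WT libraries, 9.55% to 16.6% in WT + NACET, 9.67% to 13.3% in Akita and 14.3% to 19.8% in Akita + NACET. The WT + NACET libraries also stood apart at Nnt, a mitochondrial transhydrogenase gene that carries a partial deletion in C57BL/6J but not in other C57BL/6 substrains. Nnt was at 16.3 to 23.8 CPM in the 6 WT + NACET libraries and at 7.05 to 14.8 CPM in the 12 others. Nnt was picked after its values were seen. Per the study's methods, WT mice came from a single supplier and were assigned to treatment at random. Whether the WT + NACET mice differed from the WT mice in their genetic background was not tested, and in these libraries such a difference and NACET cannot be told apart. This holds for every value below that involves WT + NACET.

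Because the 6 genes were chosen on how WT + NACET differed, the comparisons of that group with the others are given as a description without a test. Of the 6 genes, 3 were higher in WT + NACET than in WT (Sh3yl1, Ntsr2, Gm4419) and 3 were lower (Acp1, 2410018L13Rik, 5730507C01Rik). For each gene the libraries of WT + NACET did not overlap those of WT, Akita or Akita + NACET. This separation goes with how the genes were chosen, and the share of all genes with it was not counted. All 6 passed the threshold in WT + NACET vs WT by their choice, where 1.48% of the 16183 genes tested did so (0.859% higher and 0.624% lower), and nothing is read from that count. Ntsr2 passed the filter on low counts only through the WT + NACET libraries.

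**Figure D1:**
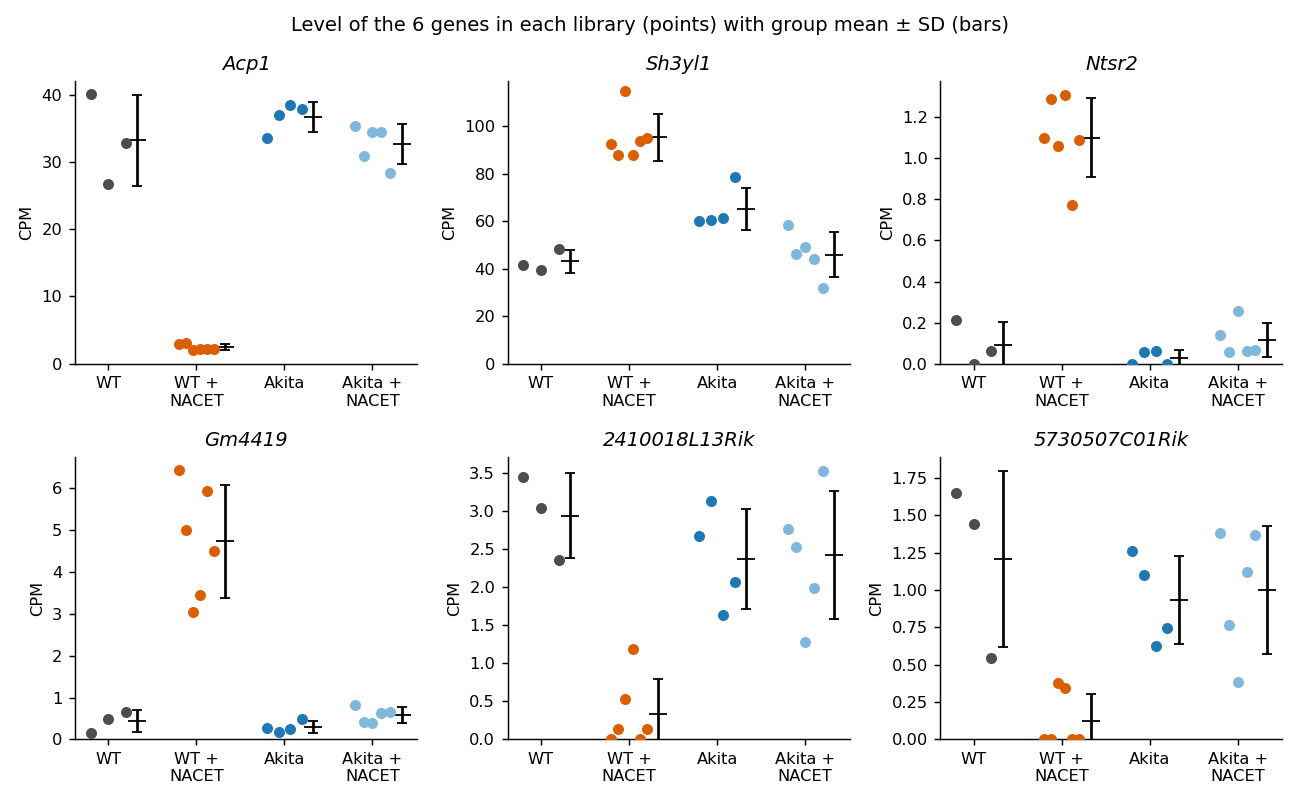
Level of each gene in CPM (linear axes from 0) in each of the 18 libraries, by group, with the group mean ± SD beside the points (SD bars are drawn down to 0 at the lowest). In each panel the 6 WT + NACET libraries are separate from the 12 others, low for Acp1 (2.05 to 3.14 CPM) and high for Sh3yl1 (87.9 to 115 CPM).

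Acp1 (ENSMUSG00000044573, chromosome 12, 31578191 to 31596477, minus strand) and Sh3yl1 (ENSMUSG00000020669, 31596533 to 31645027, plus strand) are transcribed away from each other, and 55 bases separate their annotated starts. The middle of this gap is shown because it belongs to the start region of both genes, whose levels moved in opposite directions in WT + NACET. CG dinucleotides are in capitals, and the stretch is chr12:31596490-31596519 of mm9, plus strand.
Acp1-Sh3yl1 gap: gccccaCGttCGtaCGCGgccagaggCGgg
The whole gap is 76.4% G or C and holds 9 CG dinucleotides, 5 of them in the stretch shown.

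Acp1 was at 40.1, 26.7 and 32.8 CPM in the 3 WT libraries. In the 6 WT + NACET libraries it was at 2.95, 3.14, 2.05, 2.21, 2.26 and 2.25 CPM, from 27 to 48 counts each. Low counts of the phosphatase transcript were therefore seen in every WT + NACET library, and the highest of them was far below the lowest WT library.
In Akita, Acp1 was at 33.5, 37.0, 38.5 and 37.9 CPM. In Akita + NACET it was at 35.3, 30.9, 34.4, 34.4 and 28.3 CPM, so NACET-treated Akita retinas lay among the untreated libraries and not with NACET-treated WT retinas. The fitted log2 fold change was −3.74 ± 0.13 (SE) in WT + NACET vs WT, a level 13.4-fold lower, and −3.89 ± 0.13 against Akita. Of the 32-base windows of the Acp1 exons, 39.1% occur elsewhere in mm9, and reads that align to several places were not counted, so its absolute level is uncertain. Its last exons overlap Fam150b on the other strand by 529 bases, and counting ignored strand. Fam150b itself was at 0.739 ± 0.144 CPM (SD, n = 3) in WT and 0.504 ± 0.199 CPM (SD, n = 6) in WT + NACET.

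Sh3yl1 was at 41.4, 39.4 and 48.4 CPM in WT. In WT + NACET it was at 92.7, 87.9, 115, 87.9, 93.7 and 95.2 CPM, all above the other groups, and replicate 3 was the highest of all libraries. The log2 fold change was 1.15 ± 0.14, a level 2.21-fold higher. In Akita it was at 60.2, 60.7, 61.6 and 78.5 CPM, between the other groups, and in Akita + NACET at 58.4, 46.4, 49.3, 44.2 and 31.9 CPM, where WT levels were in the middle of the range. Only 0.0445% of its exon windows are repeated in the genome, so its counts do not share this limit of Acp1.

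The balance of the divergent pair was compared as counts of Sh3yl1 per count of Acp1 in each library, a quantity that does not depend on library size. It was 1.03 to 1.48 in WT, 1.60 to 2.07 in Akita, 1.12 to 1.65 in Akita + NACET and 28.0 to 56.0 in WT + NACET. The summed level of both genes differed far less. It was 76.3 ± 8.81 CPM (SD, n = 3) in WT and 97.9 ± 9.82 CPM (SD, n = 6) in WT + NACET. For Akita the sum was 102 ± 9.79 CPM (SD, n = 4), and for Akita + NACET 78.7 ± 12.2 CPM (SD, n = 5). The sum in WT + NACET thus lay within the spread of Akita.

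**Figure D2:**
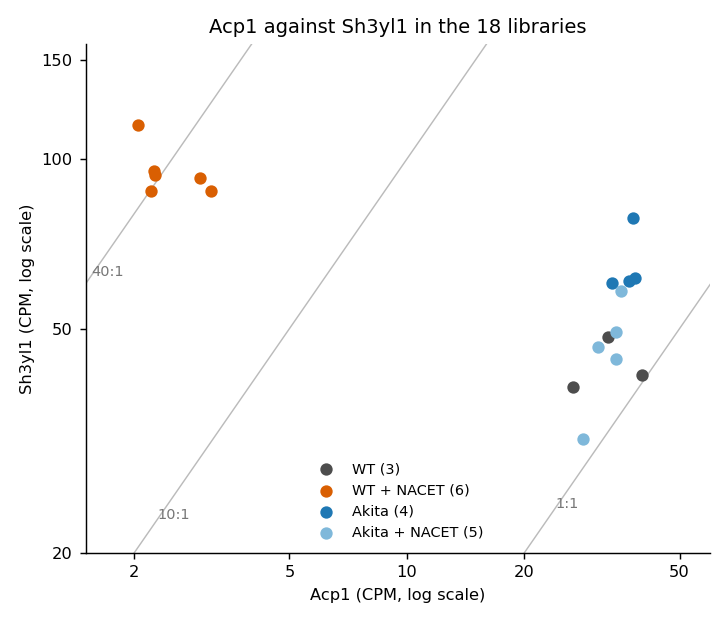
Sh3yl1 against Acp1 in CPM, both on log axes, for the 18 libraries coloured by group, with grey lines of equal ratio. The 6 WT + NACET libraries lie at 28.0 to 56.0 counts of Sh3yl1 per count of Acp1, and the 12 others at 1.03 to 2.07.

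Ntsr2 (ENSMUSG00000020591, 16660276 to 16667042, plus strand) was nearly undetected outside WT + NACET. The neurotensin receptor had 3, 0 and 1 counts in WT, 0, 1, 1 and 0 in Akita, and 2, 1, 4, 1 and 1 in Akita + NACET. In WT + NACET it had 18, 18, 14, 23, 13 and 16 counts, or 0.772 to 1.31 CPM, so that the lowest of these libraries exceeded the highest of the rest. A count of 0 allows up to 0.24 CPM in WT replicate 2, 0.21 CPM in Akita replicate 1 and 0.249 CPM in Akita replicate 4 (3 counts per library).
Over summed counts the level in WT + NACET was 11.9 times that in WT (exact 95% interval 4.49 to 44.3), 32.8 times that in Akita (8.85 to 274) and 9.62 times that in Akita + NACET (4.87 to 21.6). These intervals and limits cover counting error only. None of its exon windows is repeated in mm9. The 6 astrocyte and Müller glia markers examined beside it (Gfap, Aqp4, Slc1a3, Rlbp1, Glul, Pax2) were all present. They summed to 1490 to 1750 CPM in WT and 1440 to 2090 CPM in WT + NACET, against 801 to 1610 CPM in Akita and 1240 to 1440 CPM in Akita + NACET. The 4 pigment epithelium markers summed to 63.5 to 287 CPM in WT, 199 to 516 CPM in WT + NACET, 31.8 to 109 CPM in Akita and 31.9 to 287 CPM in Akita + NACET. Whether either cell type has a part in the Ntsr2 values was not tested.

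Gm4419 (ENSMUSG00000090621, 21423772 to 21425664, plus strand, annotated as a lincRNA) had 2, 6 and 11 counts in WT and 105, 70, 40, 61, 100 and 66 counts in WT + NACET. The noncoding RNA was thus at 0.429 ± 0.263 CPM (SD, n = 3) in WT and 4.73 ± 1.34 CPM (SD, n = 6) in WT + NACET. Akita libraries had 4, 3, 4 and 6 counts and Akita + NACET libraries 12, 7, 6, 10 and 10 counts. The level over summed counts in WT + NACET was 10.8 times that in WT (exact 95% interval 6.84 to 18.1, counting error only). The log2 fold change fitted over libraries was 3.42 ± 0.39 (SE). Gm4419 starts 273 bases from Ywhaq, a gene for a 14-3-3 protein on the opposite strand. Ywhaq was at 156 ± 24.2 CPM (SD, n = 3) in WT and 126 ± 22.0 CPM (SD, n = 6) in WT + NACET, and its log2 fold change was −0.31 ± 0.13 (edgeR quasi-likelihood test, adjusted p = 0.187).

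Exons of 2410018L13Rik (ENSMUSG00000073164, 22990656 to 23046943) and 5730507C01Rik (ENSMUSG00000073197, 18521544 to 18540997) hold much sequence repeated elsewhere in the genome. Of their 32-base exon windows, 85.4% and 69.6% occur elsewhere in mm9, with a median of 6 and 4 copies. Few windows were shared between these genes, 0.819% of those of 2410018L13Rik and 3.03% of those of 5730507C01Rik. Reads from repeated windows were left out of the counts or could be placed at a copy, so which locus gave these counts is uncertain. The mm9 annotation puts 2410018L13Rik on the plus strand and RefSeq puts it on the minus strand, which unstranded counts cannot settle. RefSeq promoters (GRCm38.p6, 250 bases before to 50 after the start) were found for all 6 genes. Those of the RIKEN pair had 226 of 251 aligned bases in common, with 98 gap positions. Only these promoters among the 6 held the core of the antioxidant response element, TGACNNNGC, which NRF2 binds. It was searched on both strands and stands in 12.4% of the 32851 mouse promoters. The stretches are shown since NRF2 is the factor the study follows, with the core in capitals.
5730507C01Rik, chr12:18514483-18514503 of GRCm38.p6, plus strand: tcccacTGACTGTGCgctccc
2410018L13Rik, chr12:23010202-23010222 of GRCm38.p6, minus strand: tcccccTGACTGTGCgcgccc
The first base of the core lies at −21 from the start of 5730507C01Rik and at 27 from that of 2410018L13Rik. The core TATAAA was in 0 of the 6 promoters and in 13.6% of all. A match describes letters and not bound factor.

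2410018L13Rik had 48, 38 and 39 counts in WT. In WT + NACET it had 0, 2, 7, 21, 0 and 2 counts. In Akita it had 38, 54, 26 and 25 counts, and in Akita + NACET 40, 43, 20, 32 and 54. WT + NACET was low in each library but unequal, and replicate 4, with 1.19 CPM, came close to the lowest Akita + NACET library at 1.28 CPM. The level over summed counts was 8.40 times lower than in WT (exact 95% interval 5.66 to 12.8). This interval covers counting error only and not the spread between libraries. The log2 fold change fitted over libraries was −3.07 ± 0.61 (SE).
5730507C01Rik had 23, 18 and 9 counts in WT, 18, 19, 10 and 9 in Akita and 20, 13, 6, 18 and 21 in Akita + NACET. WT + NACET had 0, 0, 5, 6, 0 and 0 counts, where a count of 0 allows 0.178 to 0.214 CPM. The gap to the other groups was narrow, since the highest WT + NACET library was at 0.379 CPM and the lowest Akita + NACET library at 0.383 CPM. WT + NACET replicate 4 and Akita + NACET replicate 3 each held 6 counts, so raw counts did not separate these groups. The level over summed counts was 9.78 times lower than in WT (5.02 to 20.8, counting error only). The log2 fold change fitted over libraries was −3.24 ± 0.70 (SE).

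Replicates 3 and 4 of WT + NACET held 28 of the 32 counts of 2410018L13Rik and 11 of the 11 counts of 5730507C01Rik in that group. The same 2 libraries were the lowest in Gm4419, at 3.04 and 3.46 CPM against 4.5 to 6.44 CPM in the other 4. For 3 of the 6 genes they were therefore the libraries closest to the WT mean. For Acp1, Sh3yl1 and Ntsr2, which lie at either side of these 3 on the chromosome, they were not. Of the neighbouring genes, 3110053B16Rik was at 1.90 and 2.27 CPM in replicates 3 and 4 and at 0.246 to 0.818 CPM in the other 4, with a WT mean of 3.18 CPM. RP23-71I22.5 was at 0.304 and 0.284 CPM against 0.535 to 1.23 CPM, with a WT mean of 0.0919 CPM. These 5 genes lie in the stretch from 5730507C01Rik to 2410018L13Rik. Of the 14 tested genes of that stretch, 8 had replicates 3 and 4 closest to the WT mean. Of the 40 tested genes in the rest of the 16 to 32 Mb interval, 4 did. Both ends of the stretch are genes in which the order was noticed, and the 8 include the 5 genes above. Nothing is therefore read from these counts, and the share over all genes was not counted. The share of reads outside exons in replicates 3 and 4 was 10.4% and 14.0%, inside the 9.55% to 16.6% of the group. The order of libraries was noticed in these values and was not tested.

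**Figure D3:**
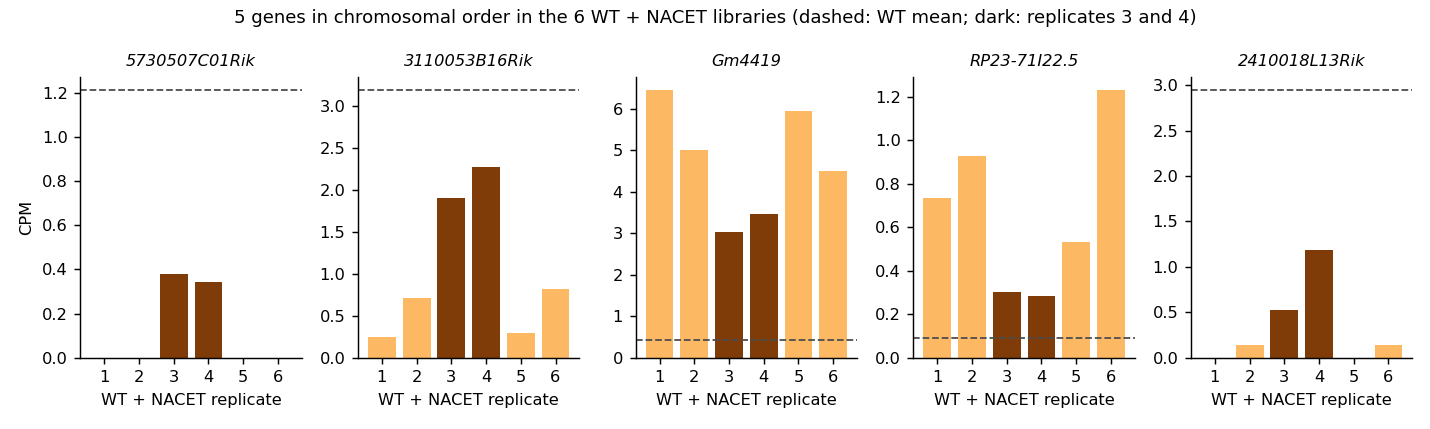
CPM of 5 genes, in their order on chromosome 12, in the 6 WT + NACET libraries (bars from 0), with the WT mean as a dashed line. In each panel replicates 3 and 4 (dark bars) lie closest to the WT mean, for example at 1.90 and 2.27 CPM for 3110053B16Rik against a WT mean of 3.18 CPM.

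Between genes, levels were compared as CPM per kilobase of annotated exon. Reads that align to several places were not counted, but the length includes repeated windows. These made up 39.1% of windows in Acp1, 69.6% in 5730507C01Rik, 85.4% in 2410018L13Rik and 11.4% in Gm4419, against 0.0445% in Sh3yl1. Levels of genes with many repeated windows may thus be too low, and the order between genes is uncertain. In WT the order was Sh3yl1 (16.9 ± 1.85), Acp1 (10.3 ± 2.09), 5730507C01Rik (1.03 ± 0.50), 2410018L13Rik (0.714 ± 0.135), Gm4419 (0.248 ± 0.152) and Ntsr2 (0.0592 ± 0.0716, SD, n = 3 each). In WT + NACET the order was Sh3yl1 (37.3 ± 3.91), Gm4419 (2.74 ± 0.777), Acp1 (0.769 ± 0.14), Ntsr2 (0.711 ± 0.124), 5730507C01Rik (0.102 ± 0.158) and 2410018L13Rik (0.081 ± 0.112, SD, n = 6 each). In WT + NACET the RIKEN genes lay within each other's spread, and so did Acp1 and Ntsr2. In WT the mean of 2410018L13Rik lay within the spread of 5730507C01Rik, but not the reverse.

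The members were then tested in the comparisons that hold no WT + NACET library, to see whether diabetes or NACET in diabetic mice moved them. Sh3yl1 was the only one called. Ntsr2 and Gm4419 did not pass the filter in fits of only these groups, so their values here carry little weight. Sh3yl1 was higher in Akita than in WT, with a log2 fold change of 0.60 ± 0.15 (edgeR, adjusted p = 0.0263) and no overlap between the groups. It was lower in Akita + NACET than in Akita, at −0.50 ± 0.13 (edgeR, adjusted p = 0.0262), again with no overlap. The share of all genes without overlap was not counted. These comparisons share the Akita libraries, and the first shares the WT libraries with the comparison that chose the genes. Thus 1 of 6 members was called in Akita vs WT, where 7.64% of all genes tested were (3.96% higher). In Akita + NACET vs Akita 1 of 6 was called, where 9.65% were (5.14% lower). Only 4 of the 6 passed the filter in fits of only the 2 groups, so nothing is read from these counts. In WT, NACET went with a higher level of Sh3yl1, and in Akita with a lower one. The share of reads outside exons moved with these groups, without overlap between Akita and either WT or Akita + NACET. A fit can therefore hardly tell this share from the group. Once it entered the fit as covariate the Sh3yl1 values were 0.29 (edgeR, adjusted p = 0.432) and −0.20 (edgeR, adjusted p = 0.705). Without Akita replicate 4, the highest Akita library at 78.5 CPM, they were 0.50 (edgeR, adjusted p = 0.0806) and −0.40 (edgeR, adjusted p = 0.0936). The Akita vs WT call was also lost without WT replicate 1 (edgeR, adjusted p = 0.129) or WT replicate 2 (edgeR, adjusted p = 0.114), and the Akita + NACET vs Akita call without Akita + NACET replicate 2 (edgeR, adjusted p = 0.0551) or replicate 5 (edgeR, adjusted p = 0.0635). The summed level of 11 retinal cell markers also moved with these groups. It was 17200 to 23900 CPM in WT and 23400 to 33800 CPM in Akita, with Akita replicate 4 the highest, against 16400 to 20800 CPM in Akita + NACET and 20300 to 27400 CPM in WT + NACET. The 3 lens markers (Cryaa, Crygs, Mip) summed to 0.646 to 7.03 CPM in WT, 0.842 to 913 CPM in Akita and 0.689 to 480 CPM in Akita + NACET. In WT + NACET they summed to 11100 CPM in replicate 5 and to at most 24.7 CPM in the other 5 libraries. The part of these markers in the Sh3yl1 values was not tested.

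The other 5 genes did not pass the threshold in either comparison. Acp1 differed by 0.14 ± 0.13 on the log2 scale in Akita vs WT (edgeR, adjusted p = 0.503) and by −0.17 ± 0.11 in Akita + NACET vs Akita (edgeR, adjusted p = 0.348). Gm4419 was at 0.97 ± 0.43 in Akita + NACET vs Akita (edgeR, adjusted p = 0.138), and Ntsr2, from 9 and 2 counts, at 1.56 ± 0.84 (edgeR, adjusted p = 0.228), too few counts to read a change or its absence. The RIKEN genes differed by 0.02 ± 0.51 and 0.09 ± 0.54 there, with errors too wide at this depth to show a small change. In Akita + NACET vs WT, edgeR called 0 of the 6 genes, with 0 at an unadjusted p under 0.05 and 0 by DESeq2. In that comparison 0.00618% of all genes tested were called.

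**Figure D4:**
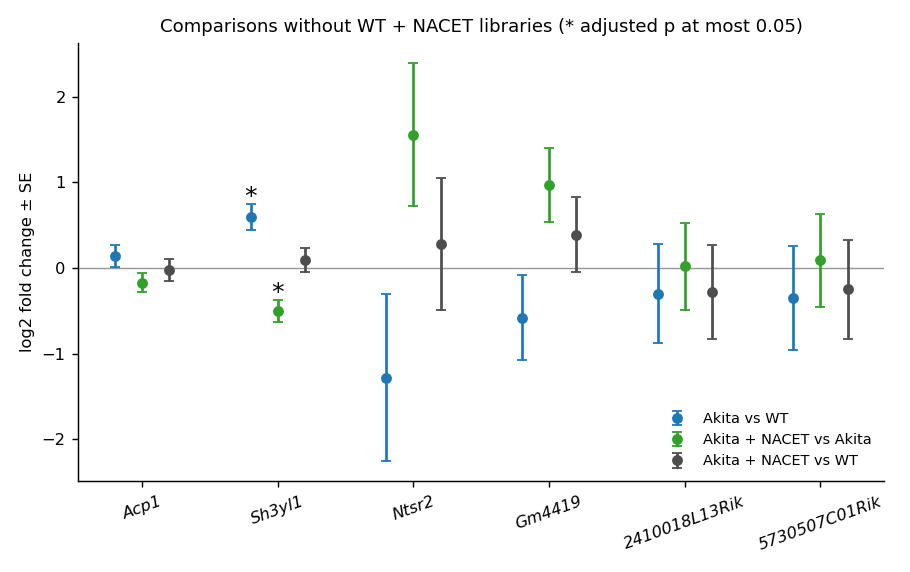
Fitted log2 fold changes ± SE (edgeR) of the 6 genes in the 3 comparisons without WT + NACET libraries, with a star where the adjusted p was at most 0.05. Sh3yl1 is starred in Akita vs WT (0.60) and Akita + NACET vs Akita (−0.50), and error bars are widest for Ntsr2.

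To place the genes among their neighbours, all single-locus genes from 16 to 32 Mb that passed the filter were counted, 54 in all, of which 48 were not members. In WT + NACET vs WT, 1 of these 48 was called (2.08%, against 1.48% of all genes): Mboat2, which encodes a lysophospholipid acyltransferase, fell by 0.70 on the log2 scale (SE 0.16, edgeR, adjusted p = 0.0314), from 35.9 ± 4.02 CPM (SD, n = 3) to 22.1 ± 2.41 CPM (SD, n = 6). The call was kept in 9 of 16 alternatives. It was lost without WT replicate 1, 2 or 3 (adjusted p = 0.166, 0.0995 and 0.0524) and without WT + NACET replicate 3 or 6 (adjusted p = 0.0654 and 0.0544), with values from −0.76 to −0.61. With the share outside exons as covariate it was −0.62 (adjusted p = 0.259). The 48 genes had a median log2 fold change of 0.01 and a median size of change of 0.32 on that scale, against 0.18 over all genes tested. At an unadjusted p under 0.05 there were 18 of the 48 (37.5%, against 19.5% of all genes). DESeq2 called 9 of the 43 for which it gave an adjusted p (20.9%, against 4.6% of all), Mboat2 among them. In the other comparisons that hold the WT + NACET libraries, edgeR called 13 of the 48 in WT + NACET vs Akita (27.1%, against 7.32% of all) and 20 in Akita + NACET vs WT + NACET (41.7%, against 13.3%). These comparisons share the WT + NACET libraries with WT + NACET vs WT, and nothing particular to the interval is read from them.

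Of the 18 nearest tested genes on either side of the members, edgeR called 0 in WT + NACET vs WT, with 7 at an unadjusted p under 0.05 (38.9%, against 19.5% of all genes). DESeq2 called 2 of the 13 for which it gave an adjusted p (15.4%, against 4.6% of all), 3110053B16Rik and E2f6. Values close to the threshold were those of 3110053B16Rik (log2 fold change −1.61 ± 0.42, edgeR adjusted p = 0.0552), RP23-71I22.5 (2.74 ± 0.73, adjusted p = 0.0598), Zfp125 (−1.85 ± 0.53, adjusted p = 0.0760) and E2f6, a repressor of the E2F family (0.91 ± 0.26, adjusted p = 0.0776). Zfp125 lies inside 3110053B16Rik on the same strand, so their reads are not independent. Fam110c, Tmem18 and Lpin1, which flank the members at the ends of the interval, had log2 fold changes of 0.10 ± 0.37, 0.03 ± 0.09 and −0.19 ± 0.11. Greb1, nearer to Ntsr2 than Lpin1, was at −0.56 ± 0.27 (edgeR, adjusted p = 0.26). Fam150b, nearer to Acp1 than Tmem18, was at −0.54 ± 0.44 (edgeR, adjusted p = 0.504).

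**Figure D5:**
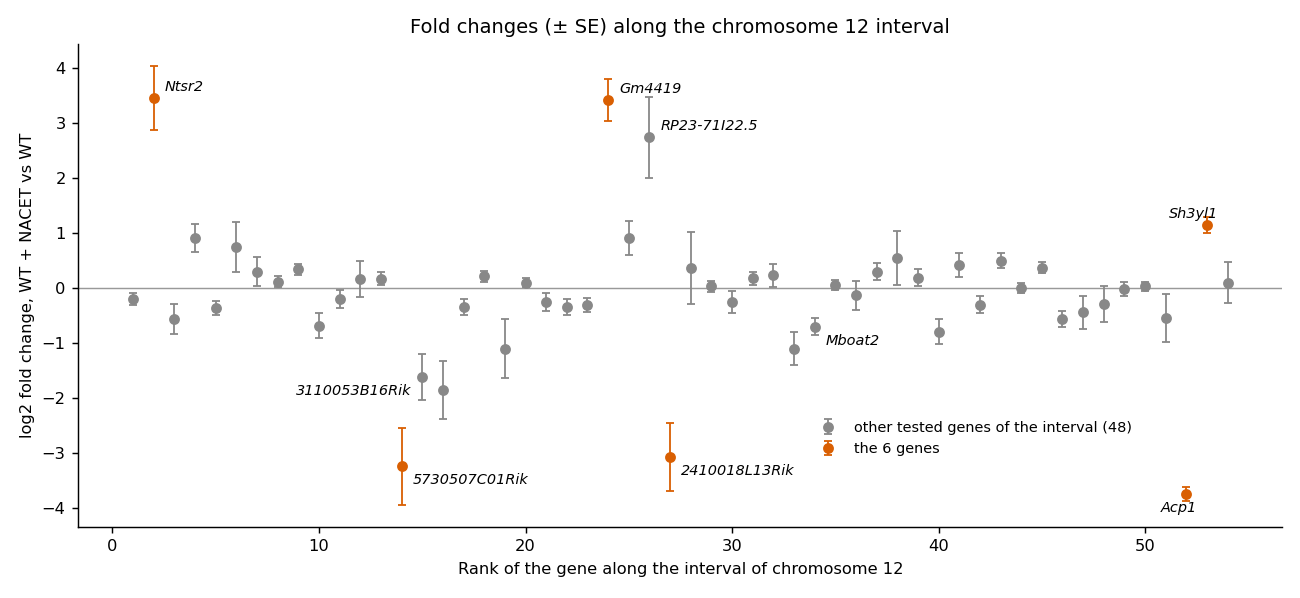
Log2 fold change ± SE in WT + NACET vs WT for the 54 tested genes of the interval, by their rank along chromosome 12, with the 6 genes in orange. Most other genes lie near 0, with RP23-71I22.5 (2.74) and 3110053B16Rik (−1.61) farther out, Ntsr2 (3.46) near the first rank and Acp1 (−3.74) and Sh3yl1 (1.15) side by side near the last.

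In Akita vs WT, 2 of the 48 other genes were called (4.17%, against 7.64% of all): Myt1l, a neuronal zinc finger factor, at −0.61 ± 0.16 (edgeR, adjusted p = 0.0293) and Sntg2, a syntrophin, at 0.66 ± 0.14 (edgeR, adjusted p = 0.0165). In Akita + NACET vs Akita, 2 were called (4.17%, against 9.65%): Myt1l at 0.66 ± 0.14 (edgeR, adjusted p = 0.0195) and Itgb1bp1, an integrin-binding protein gene, at −0.38 ± 0.09 (edgeR, adjusted p = 0.0217). None of these 4 calls was kept once the share outside exons was a covariate (adjusted p from 0.318 to 0.634). That share in Akita (9.67% to 13.3%) did not overlap that in WT (14.9% to 17.1%) or Akita + NACET (14.3% to 19.8%). Such a fit can hardly tell the share from the group, so nothing is read from the lost calls. Lamb1, a laminin gene, lies beyond the interval on the side of Sh3yl1, past Fam110c. Lamb1 was higher in Akita + NACET than in Akita (0.78 ± 0.19, edgeR, adjusted p = 0.0217), also not with the covariate (0.77, adjusted p = 0.628). It was lower in Akita than in WT (−0.72 ± 0.21, edgeR, adjusted p = 0.0439), and not called with the covariate (−0.71, adjusted p = 0.335), without WT replicate 1 or 2 or without Akita replicate 1 or 4. Lamb1 was the 1 gene called among the 18 nearest genes in each of these comparisons (5.56%, against 7.64% and 9.65% of all). In Akita vs WT, the call of Sntg2 was lost without WT replicate 1 or 2 (adjusted p = 0.109 and 0.0757), and that of Myt1l without WT replicate 1 or 2 or Akita replicate 4 (adjusted p = 0.156, 0.0757 and 0.0823). In Akita + NACET vs Akita, each call was lost without Akita replicate 4 (adjusted p from 0.0567 to 0.0736) or Akita + NACET replicate 5 (0.0553 to 0.0612). Those of Itgb1bp1 and Lamb1 were also lost without Akita + NACET replicate 2 (adjusted p = 0.0501 and 0.0503), and without Akita replicate 3 for Itgb1bp1 (0.0566) or Akita replicate 1 for Lamb1 (0.0511). In Akita + NACET vs WT, edgeR called 0 of the 48, with 1 at an unadjusted p under 0.05 (Sntg2) and 0 by DESeq2.

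Genes whose pattern over the 18 libraries was most like that of each member were found by Pearson's r of log2 CPM, given as a description, since the libraries share the separation of WT + NACET. For Acp1, Gm9493 on chromosome 19 had r = 0.982, with 34.1 ± 5.04 CPM in WT (SD, n = 3) and 3.35 ± 0.517 CPM in WT + NACET (SD, n = 6). For Sh3yl1 it was 1110051M20Rik on chromosome 2 (r = 0.960), which was at 130 CPM in WT, 171 in WT + NACET, 152 in Akita and 136 in Akita + NACET. Wdfy1 on chromosome 1, which encodes a WD-repeat and FYVE-domain protein, was the closest to both Ntsr2 (r = 0.962) and Gm4419 (r = 0.943). Its range was 89.0 to 103 CPM in WT + NACET and 12.4 to 17 CPM in the 12 other libraries. The doubt about genetic background given for Nnt holds for Wdfy1 too. For 2410018L13Rik the closest was 3110053B16Rik on chromosome 12 itself (r = 0.943), and for 5730507C01Rik it was Rec8 on chromosome 14 (r = 0.926), a meiotic cohesin gene at 5.36 ± 0.416 CPM in WT (SD, n = 3) and 0.273 ± 0.505 CPM in WT + NACET (SD, n = 6). Low counts of both RIKEN genes limit these values.

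Genes linked to the 3 characterised proteins by function or only by name were counted from a list of 12, of which 10 passed the filter and Nts, the neurotensin precursor gene, and Acp5 did not. They include the other neurotensin receptors Ntsr1 and Sort1, the acid phosphatases Acp2 and Acp6, the flavin enzymes Rfk and Flad1, and Inppl1, Dnm2, Nox4 and Cyba, of membrane phosphoinositide, vesicle and NADPH oxidase function. By edgeR 0 of the 10 were called in WT + NACET vs WT, Akita vs WT, Akita + NACET vs Akita or Akita + NACET vs WT, with 3, 2, 2 and 0 at an unadjusted p under 0.05. DESeq2 called 1 of them, the phosphoinositide phosphatase gene Inppl1 in Akita + NACET vs Akita, which edgeR put at −0.49 ± 0.16 (adjusted p = 0.0531). That was 1 of 8 with an adjusted p, where DESeq2 called 15.6% of all genes. Their median log2 fold change was −0.12 in WT + NACET vs WT, against −0.01 over all genes tested. Ntsr1 was at 0.744 ± 0.403 CPM (SD, n = 3) in WT and 0.546 ± 0.404 CPM (SD, n = 6) in WT + NACET (log2 fold change −0.43 ± 0.54, edgeR, adjusted p = 0.693), so the higher level of Ntsr2 was not seen in the other G protein-coupled neurotensin receptor.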

How the data were processed

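Retinal poly(A) libraries (TruSeq RNA v2, NextSeq 500, single end) were mapped by the authors to mm9 with TopHat 2.1.0 and counted over exons with HTSeq 0.11.2 without regard to strand. The deposited values are raw counts per gene, and reads aligned to several places (9.04% on average) were not counted. The entry without a gene name held 0.00544% of counts and was left out, and 185 ribosomal RNA genes were removed. Groups came from the sample labels.

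Genes were tested in R 4.3.3 with edgeR 4.0.16 and its quasi-likelihood method (TMM, default filter with minimum count 10 and total 15, all 4 groups in 1 fit, 16183 genes), with Benjamini-Hochberg adjustment over all genes and a call at 0.05. It was tested on simulated data. CPM uses TMM library sizes, and log2 CPM a prior count of 2. SEs derive from the F statistic. Each library was taken as 1 sample, and p-values measure the spread between libraries. Coordinates and exons are from the GENCODE mm9 annotation.

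The 6 genes and the lists were chosen with earlier results of these data known. Named others were the gene with the highest r for each member, the 2 nearest tested genes on each side, called genes of the interval and called partner genes. The gene with the highest r for Acp1 is not reported here, and the next one is given. Alternatives were DESeq2 1.42.0 (used by the study, in another version), its size factors, no filter, fits of 2 groups, a replicate block, the share of reads outside exons as covariate, the removed ribosomal RNA genes put back and each library left out in turn.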

Additional observations from a re-analysis of the deposited data

Results flagged for a closer look

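Sh3yl1 in Akita replicate 4 (78.5 CPM) lay far above the other 3 Akita libraries (60.2 to 61.6 CPM), and Sh3yl1 in WT + NACET replicate 3 (115 CPM) lay far above the other 5 (87.9 to 95.2 CPM). Chance gives such a gap in about 1 in 20 groups, and 18 were examined (the 6 genes in the 3 groups of 4 or more libraries). For Sh3yl1, all 6 WT + NACET libraries were above the WT mean and all 5 Akita + NACET libraries were below the Akita mean. The log2 fold change in Akita + NACET vs Akita minus that in WT + NACET vs WT was −1.65, with an SE of 0.19. This difference was not tested because the gene had been chosen on its WT + NACET values.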

How the results depend on the processing

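In WT + NACET vs WT the 6 genes kept their direction in each alternative that gave a value: Acp1 from −3.87 to −3.58 on the log2 scale, Sh3yl1 from 0.92 to 1.24, Ntsr2 from 2.98 to 4.72, Gm4419 from 3.02 to 3.92, 2410018L13Rik from −4.22 to −2.52 and 5730507C01Rik from −3.98 to −2.68. Sh3yl1 in Akita vs WT kept its call in 9 of 14 alternatives, and in Akita + NACET vs Akita in 10 of 16, with the same direction in all. The members called in each of these comparisons went from 1 to 0 with the covariate or with only the 2 groups in the fit (in which 4 of the 6 passed the filter), and ranged from 0 to 1 with single libraries left out. In Akita + NACET vs WT 0 members were called in each alternative. Interval genes called in WT + NACET vs WT went from 7 to 14 by DESeq2 and 4 with the covariate. Without single libraries they ranged from 4 to 11. Of the 7, all but Mboat2 are members, chosen on this comparison, so nothing is read from these counts. Interval genes called in Akita vs WT went from 3 to 0 with the covariate and 1 with 2 groups. Those in Akita + NACET vs Akita went from 3 to 6 by DESeq2, 0 with the covariate and 1 with 2 groups. Without single libraries both ranged from 0 to 5. Partner genes called went from 0 to 1 by DESeq2 in Akita + NACET vs Akita, and from 0 to 1 without single libraries there and in Akita vs WT. Apart from fits that hold fewer libraries or fewer tested genes, the cause was not tested.

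Of 22 pairs of libraries with the same replicate number in different groups, 4 had deviations with r over 0.1 (range −0.332 to 0.345, median −0.00138). Pairs with different numbers were not set beside them, so whether the numbers pair the samples was not settled. With the number as a replicate block, 0 members (Sh3yl1 at −0.46, edgeR adjusted p = 0.0592) and 0 interval genes were called in Akita + NACET vs Akita, and the calls of members did not change in Akita vs WT or Akita + NACET vs WT. In WT + NACET vs WT the block fit called 5 interval genes, with Cys1 but without Mboat2, 2410018L13Rik and 5730507C01Rik. These RIKEN genes were also not called with the covariate or without WT replicate 1 or 2. With only the 2 groups in the fit, 2410018L13Rik was not called and 5730507C01Rik was not tested. The members were chosen on this comparison, so these calls describe them and are no test. DESeq2 gave Ntsr2 no adjusted p. Ntsr2, 2410018L13Rik and 5730507C01Rik rest on 2 to 189 counts per group, which limits their precision.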
